A study of Mus musculus with 4 samples.

Results

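Jdp2 and 9 further genes of the AP-1 family (Batf, Batf3, Fos, Fosb, Fosl1, Fosl2, Jun, Junb and Jund) are described here by the Smad1 binding called around them. They were listed by name, 10 of the 21938 protein-coding genes of the GENCODE M21 annotation on the mouse build mm10 (GRCm38), and each call in the 5 deposited peak lists that lay within 20 kb of a gene body was taken. Of the 10 genes, 9 had at least 1 call in at least 1 list and Fos had none, and the calls fell at 18 separate places. The common DMSO sites, those that both peak callers reported in control cells, numbered 10466 in all and 5 at these genes, 1 each at Jdp2, Batf, Fosb, Fosl1 and Jun.

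The samples were embryoid bodies (EBs) of the GFP-Bry embryonic stem cell line, a mouse line that carries green fluorescent protein in the Brachyury locus and so reports early mesoderm, with the strain given as C57BL/6. The cultures were reaggregated, taken at day 4, and had received either the solvent DMSO or 10 µM IWR-1 for 24 h. IWR-1 stabilizes Axin and thereby inhibits canonical Wnt signalling. Smad1 chromatin immunoprecipitation followed by sequencing (ChIP-seq) and input chromatin gave 1 library each per treatment, 4 libraries in all from 1 cell line, so no difference between treatments has a replicate check and no test between them was possible. The comparison addressed whether Smad1, the nuclear effector of BMP signalling, stays bound when Wnt signalling is inhibited.

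What the sample labels say and what the lists contain did not match, and this touches the results below. Both DMSO lists, one from the caller MACS with 15927 peaks and one from QESEQ with 26070, were taken by their names. All 10466 common sites were identical intervals of the QESEQ list and overlapped the MACS list. The DMSO QESEQ list was itself deposited under the IWR-1 input, against its contents. The IWR-1 QESEQ list, with 16261 calls, carried the label of the IWR-1 ChIP. A second MACS list, with 7815 peaks, was deposited under the DMSO ChIP, although its own name gives IWR-1. Name and sample label thus disagree, so results are given with and without it. MACS scores start at 50 in both MACS lists, rank peaks only within a list and were not compared between lists. The QESEQ lists hold no score. No list holds read counts, so the depth behind a peak is unknown.

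AP-1 is a pair of basic leucine zipper (bZIP) proteins, usually a Fos and a Jun protein, that binds the letters TGACTCA, the TRE, or TGACGTCA, the CRE. The Fos group holds Fos, Fosb, Fosl1 and Fosl2, and the Jun group holds Jun, Junb and Jund. Batf and Batf3 are short partners of Jun proteins that lack a transactivation domain and are known from lymphocytes and dendritic cells. Jdp2, Jun dimerization protein 2, pairs with Jun proteins and Atf2, represses AP-1 targets and recruits histone deacetylase 3. Smad proteins meet AP-1 at many promoters. They bind the letters CAGACA, the palindrome GTCTAGAC and, in BMP targets, the GC-rich GGCGCC and GGAGCC.

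The genomic sequences of the 5 common DMSO sites are shown because they carry the elements described below. The reference bases are those of NCBI's GRCm38 on the plus strand, read 5′ to 3′. Capitals mark the elements that were searched for: TGACTCA for AP-1, GGAGCC for Smad, TGTCTG likewise for Smad since it reads CAGACA on the other strand, CTTTGTT for the Wnt effectors TCF/LEF, TTATCT for GATA factors since it reads AGATAA on the other strand, and, at Fosb, GTTCAATTC, a match to GTTCNANTC, the core of the B box inside tRNA genes. At Jdp2, chr12:85592944-85593206 runs from inside the site to past its end, to include the AP-1 element of the MACS peak. At Batf, chr12:85715024-85715309, and at Jun, chr4:95054396-95054675, most of the site is shown. At Fosb, chr7:19301106-19301338 is the middle of the site, and at Fosl1, chr19:5427691-5427790 surrounds the long run of adenines.
Jdp2 site: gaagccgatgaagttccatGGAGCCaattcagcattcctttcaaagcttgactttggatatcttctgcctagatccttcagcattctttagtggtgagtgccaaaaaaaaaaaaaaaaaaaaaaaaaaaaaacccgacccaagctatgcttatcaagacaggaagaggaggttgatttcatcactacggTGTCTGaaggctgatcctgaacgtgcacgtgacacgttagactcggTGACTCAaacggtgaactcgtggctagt
Batf site: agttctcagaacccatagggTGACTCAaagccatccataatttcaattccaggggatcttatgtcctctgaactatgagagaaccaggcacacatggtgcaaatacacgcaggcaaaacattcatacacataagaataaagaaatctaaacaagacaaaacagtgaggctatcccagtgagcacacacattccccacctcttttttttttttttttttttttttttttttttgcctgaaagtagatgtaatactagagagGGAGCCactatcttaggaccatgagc
Jun site: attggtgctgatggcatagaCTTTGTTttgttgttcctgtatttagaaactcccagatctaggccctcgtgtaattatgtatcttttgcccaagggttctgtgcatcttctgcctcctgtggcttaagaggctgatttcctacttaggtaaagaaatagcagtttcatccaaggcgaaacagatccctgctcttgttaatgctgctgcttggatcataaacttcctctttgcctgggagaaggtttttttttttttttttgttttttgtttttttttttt
Fosb site: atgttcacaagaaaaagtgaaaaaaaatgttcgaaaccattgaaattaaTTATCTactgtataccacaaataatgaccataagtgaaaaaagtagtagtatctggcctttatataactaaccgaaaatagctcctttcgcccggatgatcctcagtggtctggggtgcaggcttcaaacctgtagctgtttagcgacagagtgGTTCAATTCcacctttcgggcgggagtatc
Fosl1 site: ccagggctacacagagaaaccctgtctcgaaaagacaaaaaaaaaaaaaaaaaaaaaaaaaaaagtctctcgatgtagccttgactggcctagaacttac

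Jdp2 had 1 place of Smad1 binding within 20 kb, upstream of the gene. The common site spanned chr12:85592877-85593168, 292 bp, with its centre 6394 bp before the start of the main transcript and its nearer end 5859 bp from the gene body, in intergenic sequence. No other protein-coding gene started nearer, while the long noncoding gene Gm47863, which is read from the other strand, starts between the site and that transcript start. The MACS peak behind it, at chr12:85592869-85593219, scored 51.17, which placed it at rank 15143 of 15927, above 4.9% of the DMSO list and close to the lowest score that MACS kept. The QESEQ call was the same interval as the common site. Control cells thus had a call from both callers at Jdp2, and by MACS it was a low one.

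After IWR-1, QESEQ made no call at Jdp2, and the nearest call of that list lay 53.1 kb away, past the other end of the gene and inside Batf. The second MACS list had a peak at chr12:85593004-85593346, score 55.05, above 24.8% of its own list, which shared 165 bp with the common site and did not reach an overlap of 50% of each interval. Read by the name of the second MACS list, Jdp2 was called with IWR-1 by one caller and not by the other. Read by its sample label, that list would give Jdp2 a further call in DMSO and none with IWR-1. Jdp2 was 1 of 776 common sites, 7.41% of all, with a call in the second MACS list and none in the IWR-1 QESEQ list.

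The Jdp2 site held GGAGCC and TGTCTG, 2 Smad elements, on either side of a run of 30 adenines. A TGACTCA began 11 bp past the end of the site and lay inside the DMSO MACS peak and inside the second MACS peak. Another TGTCTG began 51 bp past the end of the site, and its first base was the last of the DMSO MACS peak. In the sequence above, the AP-1 element is the last one in capitals, and the run stands in the middle. GC content was 43.5%, and 15.4% of the site was masked as repeat.

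**Figure D1:**
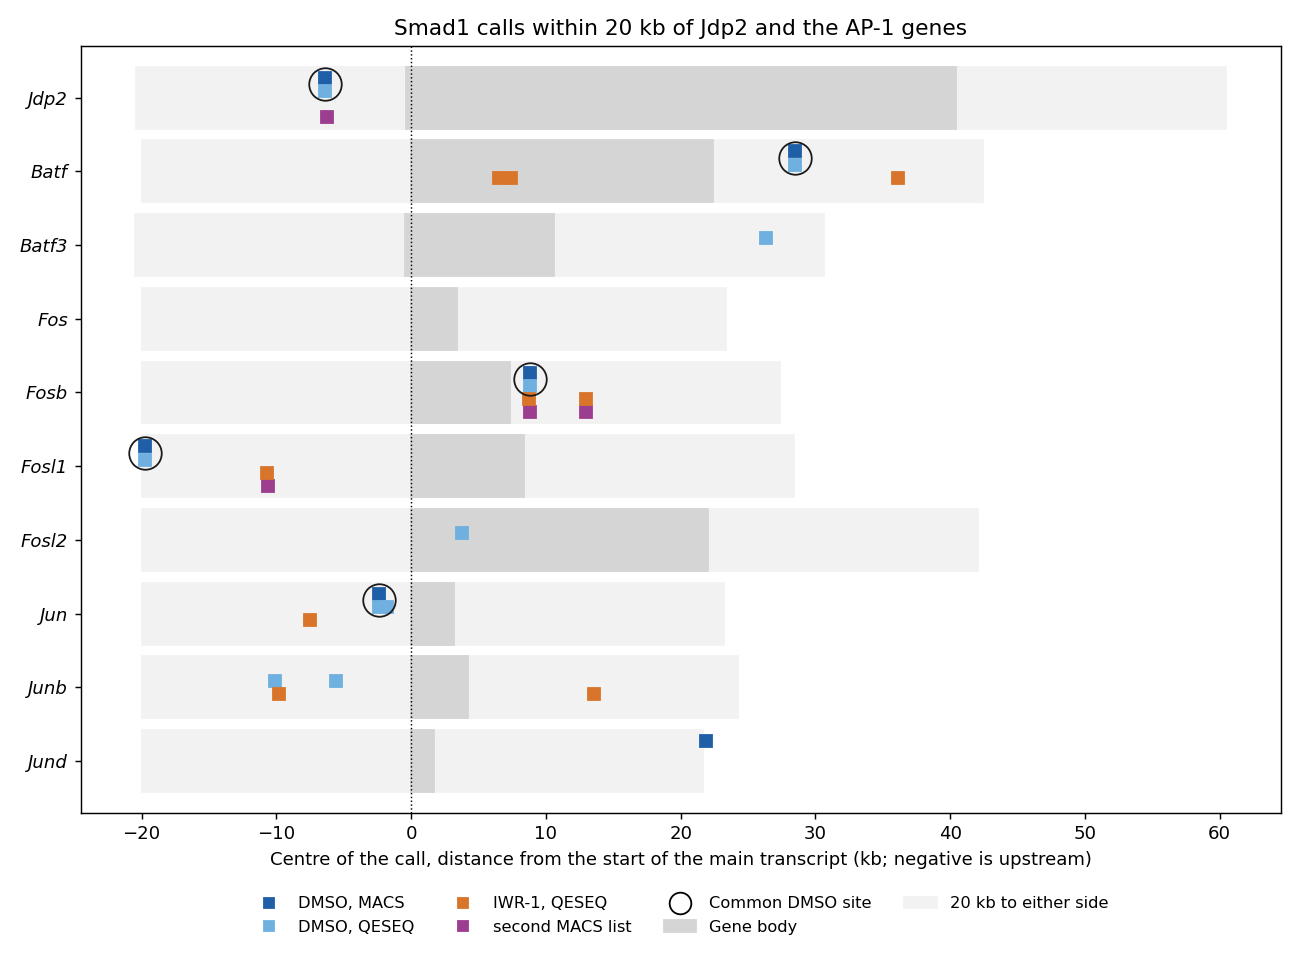
Smad1 calls within 20 kb of the 10 genes. Each row is a gene, each square the centre of a call placed by its distance from the start of the main transcript (kb, negative upstream), colours are the 4 caller lists, circles mark the 5 common DMSO sites, dark grey is the gene body and light grey the 20 kb on either side. Fos has no call, Fosb is the one gene with calls from all 4 lists at the same place, and the calls in Batf introns come from the IWR-1 QESEQ list alone.

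In the Fos group, the common sites were at Fosb and Fosl1 and none was within 20 kb of Fos or Fosl2. Near Fosb, which encodes a Fos protein with a transactivation domain, lay the common site with the highest score of the family. Whether that site belongs to Fosb or to the selenocysteine tRNA gene known to lie beside Fosb was not tested. The Fosb site, at chr7:19300887-19301504, 618 bp, lay 1192 bp past the end of Fosb, with its centre 8856 bp from the start. Its MACS peak scored 264.02, rank 428, above 97.3% of the DMSO list. It was also the one common site of the family called in both remaining lists. The IWR-1 QESEQ call at chr7:19301061-19301498 covered 438 bp of it and the second MACS peak at chr7:19301061-19301461 covered 401 bp, with a score of 142.36, above 92.4% of its list. The 2 calls began at the same base.

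The Fosb site held no AP-1 and no Smad element. Its longest run of adenines was 8, the shortest of the 5 sites, and it held 1 GATA element. The letters GTTCAATTC stood at chr7:19301309-19301317. The gene of the selenocysteine tRNA is known to lie beside Fosb in mammals. The annotations used here placed no tRNA gene on the site, and their nearest one was 9062948 bp from Fosb. They therefore lack that gene and could not show whether the site is it, which was not tested. GTTCNANTC was in 68.7% of 403 annotated nuclear tRNA genes (95% CI 64.0 to 73.2, exact binomial), in 70.1% of the 214 common sites on such genes (63.5 to 76.1) and in 7.31% of the 10252 other common sites (6.81 to 7.83). The Fosb site is counted among these 10252, because no annotated tRNA gene overlaps it. An IWR-1 QESEQ call was present at 98.1% of the common sites on tRNA genes (95.3 to 99.5). It was present at 97.5% of the 314 common sites with a DMSO score of 200 or more (95.0 to 98.9), of which the Fosb site is 1, and the second MACS list called 98.7% of them (96.8 to 99.7). The Fosb site was called with IWR-1, as were nearly all sites scoring 200 or more and nearly all sites on tRNA genes. These sets can share sites and were not separated.

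Fosb had a further place of binding that was seen in neither DMSO list. IWR-1 QESEQ called chr7:19297010-19297165 and the second MACS list chr7:19296972-19297216, score 75.75, above 72.9% of its list, both past the end of the gene. The QESEQ call ended 5531 bp from the gene body and held an AGATAA on one strand but no Smad or AP-1 element. Its longest run was 4.

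Fosl1, which encodes Fra-1, a Fos protein without the C-terminal transactivation domain of Fos, had a common site near the edge of the 20 kb. It spanned chr19:5427606-5427954, 349 bp, with its centre 19767 bp upstream of the start, and the start of AI837181 was nearer, at 2636 bp. The MACS score was 63.36, rank 8699, above 45.4% of the DMSO list. The site held none of the searched elements, 75.6% of it was masked as repeat and it held a run of 28 adenines. Neither IWR-1 QESEQ nor the second MACS list called it. Instead both called a place 10.5 kb upstream of Fosl1, at chr19:5436735-5437001 and chr19:5436735-5437057, where neither DMSO list had a call. The MACS score there was 60.32, above 43.2% of its list, no element was found, and the run of adenines was 30.

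Fosl2, which encodes Fra-2, was called once, by DMSO QESEQ alone, at chr5:32139320-32139859 in intron 1, with the centre 3788 bp past the start. The call held CTTTGTT at 2 positions and a run of 8. Its nearest common site lay 51.2 kb away and its nearest IWR-1 QESEQ call 80.4 kb away. Fos, the founding member and an immediate early gene, had no call in any of the 5 lists within 20 kb. The nearest call to Fos was a DMSO QESEQ call 52.2 kb away, then a common site at 59.5 kb, and the nearest calls of the IWR-1 QESEQ and second MACS lists lay 94.6 kb away on its other side. No call within 20 kb was also the state of 28.3% of all protein-coding genes.

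In the Jun group, Jun alone had a common site. It spanned chr4:95054386-95054750, 365 bp, with its centre 2346 bp upstream of the start of this single-exon gene, the closest of the 5 sites to the start of its listed gene, inside the antisense gene Junos. Its score of 54.35, rank 13188, was above 17.2% of the DMSO list. The site held CTTTGTT, runs of 17 and 14 thymines, and no AP-1 or Smad element. A separate DMSO QESEQ call at chr4:95053907-95054183, 1823 bp upstream, held a run of 32 and had no MACS peak. After IWR-1 neither of these 2 places was called. QESEQ called another, at chr4:95059403-95060059, 7509 bp upstream and still in Junos, with 2 CAGACA, 1 CTTTGAT, no run longer than 5 and no masked repeat, and this call was in no other list.

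Junb and Jund, whose products are often weaker activators than Jun, had no common site within 20 kb. At Junb, DMSO QESEQ alone called chr8:84984149-84984437, 5575 bp upstream, with CTTTGTT and AGATAA. DMSO QESEQ also called chr8:84988590-84989027, 10090 bp upstream and 1809 bp from the start of Hook2. IWR-1 QESEQ called chr8:84988298-84988756, which overlapped the latter, and chr8:84964964-84965305 inside Rnaseh2a, 9179 bp past the end of Junb. The overlapping pair held no searched element and no MACS peak. Jund had 1 call, by DMSO MACS alone, at chr8:70720546-70721169 inside Gm3336, 19930 bp past its end, score 62.90, above 44.0% of the list, with a GGAGCC and no run longer than 6.

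In the Batf group, Batf had a common site with an AP-1 and a Smad element inside it, the one site of the 5 with both, and Batf3 had no common site within 20 kb. The Batf site spanned chr12:85714943-85715388, 446 bp, and lay 5856 bp past the end of the gene, 28496 bp from its start, in intergenic sequence. Its MACS score of 75.95, rank 4799, was above 69.9% of the DMSO list, the next highest of the 5 after Fosb. It held TGACTCA and GGAGCC with a run of 32 thymines between them, and 59.9% of it was masked. Neither the IWR-1 QESEQ nor the second MACS list called it. Common sites with scores of 60 to 80, which include Batf and Fosl1, were called by IWR-1 QESEQ at 34.6% (33.2 to 36.1) and by the second MACS list at 21.5% (20.3 to 22.8).

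With IWR-1, Batf had the most QESEQ calls of the family, 3, and none of them was in a DMSO list or in the second MACS list. A pair lay in intron 2, at chr12:85692992-85693424 and chr12:85693766-85694331, with runs of 24 and 31. The other lay 13276 bp past the end of the gene at chr12:85722363-85723221. It was the one call of the family with the palindrome GTCTAGAC, found in 0.418% of IWR-1 QESEQ calls (0.325 to 0.530) and 0.411% of common sites (0.297 to 0.553), and it also held CAGACA, a TCF/LEF element and a run of 31. Its bases chr12:85722829-85722928 are shown for the palindrome and for ATCAAAG, the reverse complement of the TCF/LEF letters CTTTGAT. Batf3 was called once, by DMSO QESEQ alone, at chr1:191124058-191125281, 15113 bp past the end of the gene. That call was 1224 bp wide and held TGACTCA once, the Smad letters GGAGCC once, another Smad element of the form CAGACA and a run of 7, and chr1:191124280-191124379 is shown for its TGACTCA, which was in 7.25% of all DMSO QESEQ calls (6.94 to 7.57).
Batf downstream IWR-1 call: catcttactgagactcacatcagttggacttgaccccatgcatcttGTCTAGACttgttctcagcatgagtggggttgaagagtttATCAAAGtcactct
Batf3 DMSO QESEQ call: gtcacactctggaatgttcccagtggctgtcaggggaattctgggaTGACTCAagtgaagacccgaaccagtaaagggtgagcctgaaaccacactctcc

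Fos, Jdp2 and Batf follow one another on chromosome 12, all on the plus strand. The end of Fos and the start of Jdp2 were 121.8 kb apart and the end of Jdp2 and the start of Batf 46.8 kb. Over the 275 kb from 20 kb before Fos to 20 kb past Batf there were 3 common sites. The 1 not yet described lay 62.3 kb upstream of Jdp2 in Gm32296, had a score of 67.88, above 55.7% of the DMSO list, and held a run of 28. In the same stretch the second MACS list had 1 peak, at Jdp2, and IWR-1 QESEQ had 3 calls, all at Batf. No place in this stretch was called by both of these lists.

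**Figure D2:**
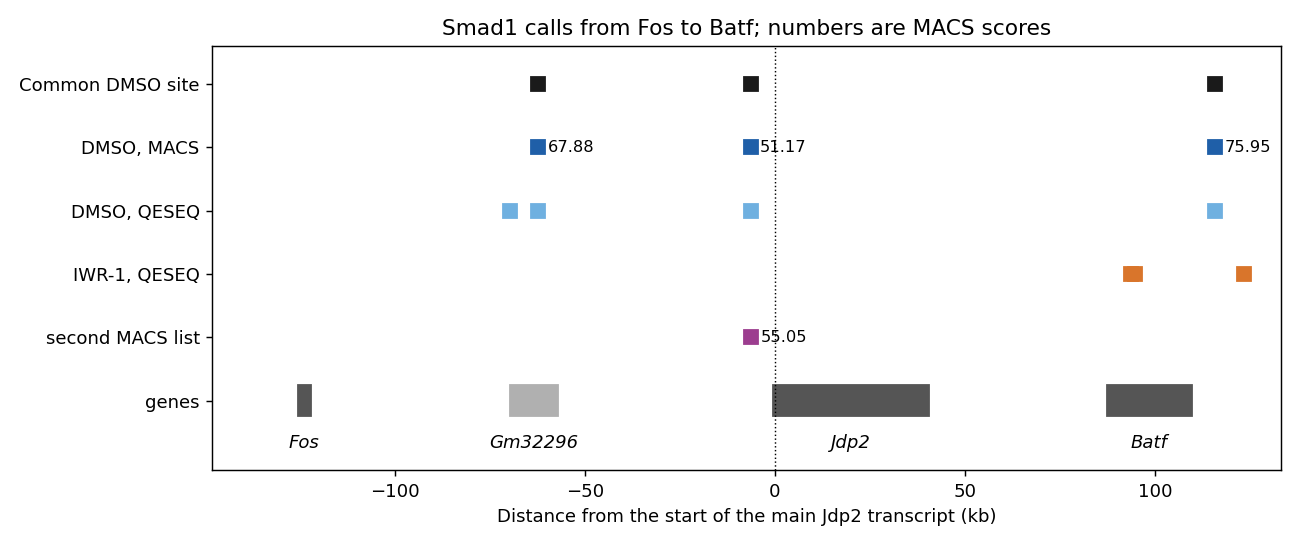
Smad1 calls from Fos to Batf. The x axis is the distance from the start of the main Jdp2 transcript (kb), each row a deposited list, each square the centre of a call, numbers beside squares MACS scores, and the bottom row the genes. Common sites stand in Gm32296, upstream of Jdp2 and past the end of Batf. The IWR-1 QESEQ calls are at Batf and the second MACS peak, score 55.05, is at Jdp2.

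Counted over genes, the family was called about as often as other genes. A common site was within 20 kb of 5 of the 10 genes, against 35.1% of all protein-coding genes and 29.8% (29.0 to 30.5) of the 14626 with a length from 1668 to 40852 bp, the range of the 10. DMSO MACS called 6 of 10, against 44.2%, and DMSO QESEQ 8 of 10, against 60.2%. IWR-1 QESEQ called 5 of 10, which were Batf, Fosb, Fosl1, Jun and Junb, against 47.2% of all genes and 42.4% (41.6 to 43.2) of those of like length. The second MACS list called 3 of 10, which were Jdp2, Fosb and Fosl1, against 26.8%. With 10 genes, each of these counts lies within 2 genes of what the share over all genes gives, and nothing particular to the family was read from them.

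Ranked by DMSO score, the common sites followed the order Fosb (264.02), Batf (75.95), Fosl1 (63.36), Jun (54.35) and Jdp2 (51.17). With 1 library, the spread of a score is unknown, and only the gap from Fosb to the others exceeds the range of those 4. The median score of the DMSO list was 65.3, so 2 of the 5 sites were above it. An IWR-1 QESEQ call was present at 1 of the 5 sites, Fosb, against 37.0% of all common sites. Whether that site belongs to Fosb or to the selenocysteine tRNA gene beside Fosb was not tested. The other common sites scored below 100 and had no such call. The second MACS list called 2 of 5, Fosb and Jdp2, against 25.8%, and either list 2 of 5, against 44.4%. Sites with scores from 50 to 55, where Jdp2 and Jun belong, were called by IWR-1 QESEQ at 27.6% (25.5 to 29.8) and by the second MACS list at 13.1% (11.6 to 14.8). Most sites with scores from 50 to 55 were thus without an IWR-1 QESEQ call, as Jdp2 was. Most were also without a second MACS call, which Jdp2 had.

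**Figure D3:**
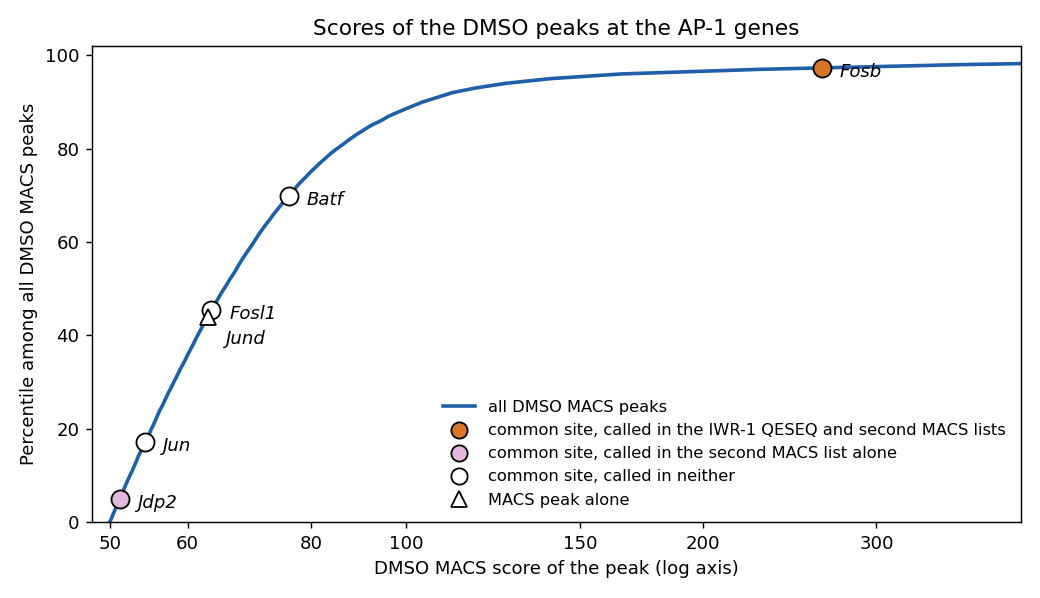
DMSO MACS scores at the AP-1 genes. The curve gives the percentile (y axis) of each score (x axis, log scale) among all DMSO MACS peaks, circles are the 5 common sites filled by their later calls, and the triangle is the Jund peak that MACS alone called. Jdp2 sits at the low end at 51.17 and Fosb, the site called in the IWR-1 QESEQ and second MACS lists, at 264.02.

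The 18 places divided into 8 called in DMSO lists alone, 7 in the IWR-1 QESEQ or second MACS lists alone, and 3 in both kinds, which were Jdp2, Fosb and Junb. Without the second MACS list Jdp2 would join the first class, while no place would be lost, because its peaks outside the DMSO lists, at Fosb and Fosl1, were also IWR-1 QESEQ calls. Of the 8 DMSO places, 3 were common sites and 5 were called by 1 caller. Over the whole genome 57.1% of DMSO QESEQ calls (56.5 to 57.7) had no DMSO MACS peak and 29.8% of DMSO MACS peaks (29.1 to 30.5) had no QESEQ call. Of the 9 places with an IWR-1 QESEQ call, 7 were outside both DMSO lists, against 52.9% of all calls of that list. Of the 18 places, 3 overlapped a listed gene body, all in introns of Batf or Fosl2. None of the 18 overlapped the 300-base promoter window around a RefSeq start, which was given for 9 of the 10 genes. No share over all calls was taken for these counts, so neither was read as a trait of the family.

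AP-1 elements were not more frequent at Smad1 sites than beside them, and Smad elements were slightly less frequent, as were GATA and TCF/LEF elements. TGACTCA or TGACGTCA was in 1 of the 5 common sites at the AP-1 genes, Batf, and in 7.03% of all common sites (6.55 to 7.54), against 7.69% (7.33 to 8.06) of windows of the same width 2 kb to either side. In the MACS peaks behind the 5 sites the count was 2, with Jdp2. Among common sites with an IWR-1 QESEQ call, 7.77% (6.94 to 8.66) held an AP-1 element, against 6.60% (6.01 to 7.23) of those without. A Smad element of any of the 4 kinds was in 2 of the 5, Jdp2 and Batf, and in 44.2% of all common sites (43.2 to 45.1), against 47.0% (46.3 to 47.7) of the windows. AGATAA was in 21.1% of common sites against 24.8% of windows, and CTTTGAT or CTTTGTT in 18.3% against 19.7%. GTTCNANTC went the other way, 8.59% against 8.01%. Both an AP-1 and a Smad element were in 1 of the 5 common sites, Batf, in 3.44% of all common sites (3.10 to 3.81) and in 4.03% of windows (3.77 to 4.30). Of the 18 places, 3 held both, at Jdp2, Batf and Batf3. Places join overlapping calls of any list and can be wider than common sites, and no share was taken over such places.

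Runs of adenines were in all 5 sites. A run of at least 7 on either strand was in 5 of 5, against 90.3% of all common sites and 29.8% of the windows (29.1 to 30.4). Runs of at least 28, a length set to that of the Fosl1 site after it was seen, were in Jdp2, Batf and Fosl1, 3 of 5, against 37.6% of common sites and 0.311% of windows (0.240 to 0.396). Over the 18 places, 14 held a run of 7 and 7 held a run of 28, and long runs stood at places called in DMSO alone and with IWR-1 alone. Of the 3 places called in both kinds of list Jdp2 alone had a long run, and without the second MACS list it counts as called in DMSO alone and no long run is left in that class. What part the runs have in the calls was not tested. At Fosb, the common site and the place called with IWR-1 alone had runs of at most 8 and 9.

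**Figure D4:**
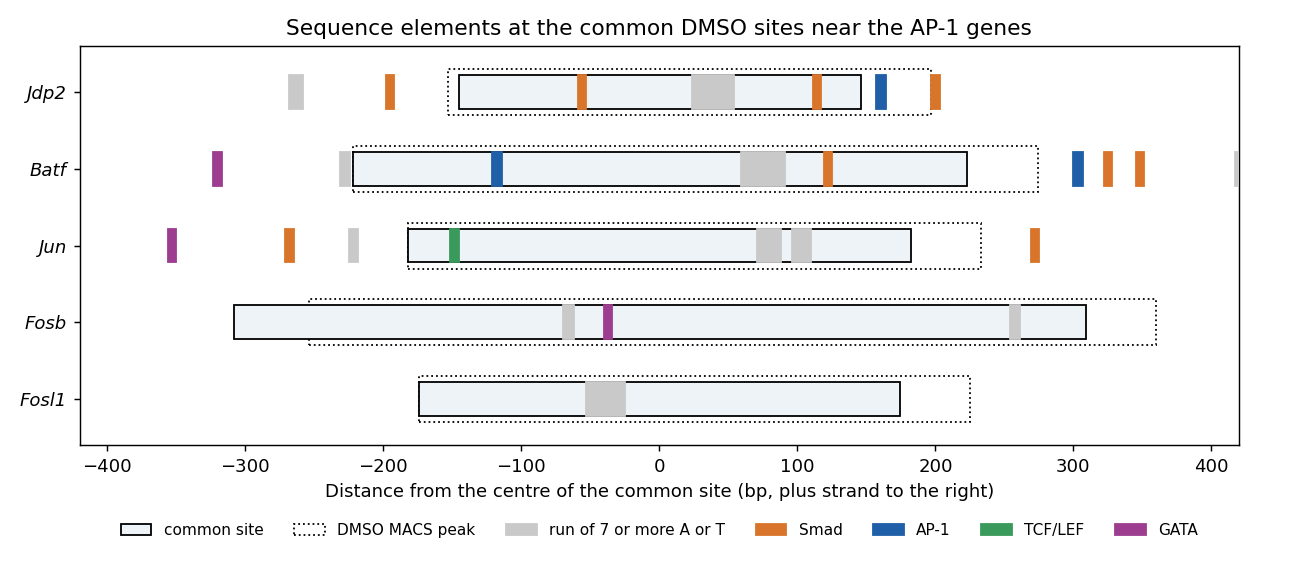
Elements at the 5 common DMSO sites. Each row is a site drawn around its centre (x axis in bp), with the common site as a filled box, the DMSO MACS peak as a dotted box, runs of at least 7 A or T in grey and searched elements in colour. Jdp2 and Batf hold Smad elements and a long run with an AP-1 element in the site (Batf) or 11 bp past its end (Jdp2), while Jun, Fosb and Fosl1 hold neither an AP-1 nor a Smad element.

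Other bZIP genes and the kinases that act on AP-1 were counted in the same way. Of 35 further bZIP genes, among them the Atf, Creb, Cebp, Maf and Nfe2 families, 8 had a common site within 20 kb and 15 an IWR-1 QESEQ call, and 11 had no call in any list, beside the shares over all genes of 35.1%, 47.2% and 28.3%. They held 13 common sites, of which 4 were called by IWR-1 QESEQ, beside 37.0% of all common sites. Of 10 genes of the JNK pathway and Jdp2 partners, the kinases that phosphorylate Jun and Jdp2 with their scaffolds, Hdac3 and Irf2bp1, 4 had a common site and 7 an IWR-1 QESEQ call. None of the 17 common sites at these 45 genes reached a DMSO score of 100. By number of calls over the 4 caller lists, Fosl1 and Atf1 came closest to Jdp2 among 54 genes compared, each with a summed difference of 1 call, and 13 genes followed at 2. This measure counts calls whatever their place. The second MACS peak overlapped the common site at Jdp2 and did not at Fosl1.

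Some calls lay close to the limit of 20 kb. Inside it were the Fosl1 common site at 19593 bp from the gene body and the Jund peak at 19930 bp. Just outside it, at Junb, were an IWR-1 QESEQ call at 20184 bp and a second MACS peak at 20274 bp, score 53.93, both in Hook2, and a DMSO QESEQ call at 21885 bp. The Batf3 common site nearest to the gene lay 26093 bp past its end, with a DMSO score of 68.74 and a second MACS score of 59.15.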

How the data were processed

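Smad1 ChIP and input chromatin were sequenced from DMSO-treated and IWR-1-treated EBs, with 1 library each. The authors mapped the reads to mm10 with Bowtie2, discarded PCR duplicates, and ran the peak callers MACS and QESEQ; the submitters' processing notes name CASAVA 1.8, Bowtie2 2.1.0 and MACS 1.0.1. Peak positions are all that the QESEQ lists give, and the score of each MACS peak is the authors' deposited value. Positions were read as counted from 0, a convention that the QESEQ lists do not state, and are given counted from 1, so the starts of QESEQ calls and common sites rest on that reading. No read counts are in the lists and expression was not analysed here, so depth and the labelled cell type could not be checked.

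Genes were those of GENCODE M21, widened by 20 kb. None of the 76534 peaks on chromosomes 1 to 19, X and Y ran past the chromosome ends of NCBI's GRCm38, the assembly behind mm10 and the source of the sequences. Overlap was counted from 1 bp. A place joins calls that overlap one another. Elements were searched by their exact letters on both strands over the whole interval, and adenine runs from 7 bases up were sought likewise; windows of equal width lay 2 kb to either side. CAGACA and GTCTAGAC can overlap. Intervals on shares are 95% Clopper-Pearson (exact binomial) and cover only counting error over sites. The main transcript was the principal coding one.

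The text names the 10 genes with every call, other genes where a call lies inside them or their start is nearest, the genes with the smallest summed difference from Jdp2 in calls over 4 lists (up to 5, ties left out), and related genes with a common site scoring at least 100, of which there were none. The members, the 35 bZIP and 10 JNK pathway genes and the elements were chosen with earlier results of these data known. The overlap and element searches were tested on simulated data and gave the right answer in 2000 of 2000 cases each. For GGCGCC the simulated background of G and C could hold the letters by chance, so false matches of that element were not tested. Python 3.11.15, numpy 2.4.6, scipy 1.17.1 and pysam 0.24.0 were used. Alternatives covered the distance, the list, the score, the overlap and the window searched.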

Additional observations from a re-analysis of the deposited data

How the results depend on the processing

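Of 28 alternative settings, 17 left a count within 1.5 times its value and 11 moved it. The 5 common sites at the AP-1 genes became 10 within 50 kb, 10 with the DMSO QESEQ list in place of the common sites, and 1 with a DMSO score of at least 100. The 5 genes with such a site became 8 with the DMSO QESEQ list and 1, Fosb, with that score. The 1 common site with an IWR-1 QESEQ call became 2 with the second MACS list or with either list, and the site added was Jdp2. The 1 site with an AP-1 element became 0 in the central 200 bp and 2 in the MACS peaks. The 2 sites with a Smad element became 1 in the central 200 bp. The 5 genes with an IWR-1 QESEQ call became 3 with the second MACS list, of which Fosb and Fosl1 were in both sets. The settings themselves set these counts, since they change the region, list or threshold. No paired analysis was possible because each treatment had 1 ChIP library and the lists carry no replicate numbers. With 1 library and no read counts, a missing call does not show that binding was absent.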

Other observations

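The related genes held 17 common sites, and 0 of them carried TGACTCA or TGACGTCA, beside 7.03% of all common sites. Of the 17, 4 held a Smad element, beside 44.2%, and 16 a run of at least 7 adenines, beside 90.3%. IWR-1 QESEQ called 6 of the 17, beside 37.0%, and nothing particular to the related genes was read from these counts. The genes in this paragraph were chosen after their values were seen. Atf2, a bZIP partner of Jdp2, had the site with the highest score of the 17, 95.8, 1115 bp from its start, called by IWR-1 QESEQ and in the second MACS list, and a second at 88.7, called by IWR-1 QESEQ alone. Bach2, a bZIP repressor known from B cells, had 4 sites in its introns with scores from 58.9 to 80.1, and the highest of these was the one called by IWR-1 QESEQ and in the second MACS list.

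Batf3 had no common site within 20 kb, but DMSO MACS and IWR-1 QESEQ overlapped 32316 bp past its end, at a DMSO score of 67.41 and a run of 45 adenines, the longest of any call within 50 kb of the listed genes. Within 50 kb of Junb lay 2 common sites, with DMSO scores of 143.78 near Rtbdn and 86.30 in Best2, both called by IWR-1 QESEQ and in the second MACS list. Their longest runs were 6 and 4, and the former held GGAGCC at 3 positions.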
